A study of Canis lupus familiaris with 6 samples.

Results

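Myeloid transcription factors are the DNA-binding proteins that direct blood progenitors towards neutrophils, eosinophils, monocytes, macrophages and dendritic cells. The set described here was a list of 9 gene names, namely SPI1, CEBPA, CEBPB, CEBPD, CEBPE, GFI1, IRF8, KLF4 and KLF2, and every row of the deposited expression table that carried one of these names was taken. The table held 31512 rows, and 6 of the 9 names had a row. All 6 rows passed the filter of a mean of at least 1 FPKM (sequenced fragments scaled to gene length and library size), which left 9847 genes in the test. CEBPA, CEBPD and KLF2 had no row of that name, so CEBPD and KLF2 were not analysed here. A row without a gene name, described in the table as C/EBP alpha, is given beside the members as "the C/EBP alpha row". It lay outside the naming rule and was added after the table had been seen.

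Whole blood of 6 healthy adult Beagle dogs was sequenced after 30 days, with 3 dogs in each group and 1 library for each dog. The control group received a snack without CPP-Se, and the CPP-Se group received the same kind of snack with CPP-Se, a chelate of casein phosphopeptide (a milk protein fragment that binds minerals) with selenium. All dogs ate the same maintenance food. The dogs carried no engineered allele and were not given any other agent that the labels or the methods name. The labels call the replicates biological, so the spread given below is that between dogs. Whole blood mixes every circulating cell type, and FPKM are shares of a library. Fewer cells of a type, less RNA per cell and more RNA from other cells therefore cannot be told apart in any value below.

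Myeloid differentiation runs through a small circuit of factors. PU.1, the product of SPI1, opens the myeloid programme and is needed for the receptors through which the growth factors of the lineage act. C/EBP alpha works with PU.1 in granulocyte progenitors, C/EBP epsilon and GFI1 act later during granule formation, and IRF8 and KLF4 favour the monocyte and dendritic branches, while C/EBP beta serves when granulocyte or macrophage output and inflammatory genes are called up.

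The libraries held between 6598173 and 8067034 reads assigned to genes, as recovered from the FPKM. The library of CPP-Se dog 2 stood apart. The library size implied by its FPKM was 1.65 times its reads on genes, against 0.882 to 1.05 times in the other 5 libraries, and 8 hemoglobin genes took 36.6% of its reads on genes against 48.7% to 55.9% elsewhere. The median log2 fold change of all genes tested was 0.00 on the deposited scale and 0.13 when every library was scaled to a common sum of FPKM. Some values, chiefly those of SPI1 and CEBPB, are therefore also given on other scales below. The table's marker lists showed a whole-blood profile, with summed levels of 1163 to 2928 FPKM for 10 neutrophil markers and 138 to 389 FPKM for 13 T cell markers.

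The members differed widely in level. SPI1 had the highest mean level over the 6 dogs, 257 FPKM, and was above CEBPB (153 FPKM) in 6 of 6 dogs. CEBPB was above the C/EBP alpha row (61.9 FPKM) in 6 of 6 dogs, and that row was above IRF8 (16.8 FPKM) in 6 of 6 dogs. IRF8 was above KLF4 (4.46 FPKM) in 6 of 6 dogs. The order was less firm lower down, where KLF4 was above CEBPE (3.14 FPKM) in 5 of 6 dogs and CEBPE was above the row named GFI1 (1.19 FPKM) in 5 of 6 dogs. SPI1 ranked 191 and CEBPB 302 by mean FPKM among all rows, so both belonged to the abundant transcripts of dog blood. The plot of FPKM by dog shows these steps and the 2 members whose groups did not overlap.

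**Figure D1:**
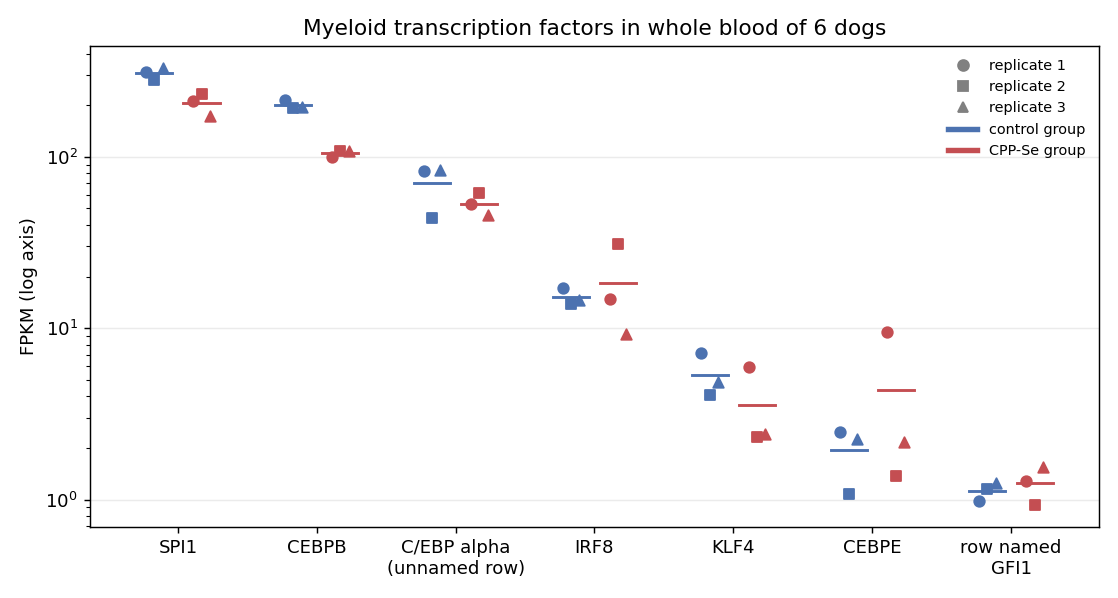
FPKM (log axis) of each factor in the 3 control dogs (blue) and the 3 CPP-Se dogs (red), with 1 symbol for each replicate number and a line at each group's mean. SPI1 and CEBPB sit lower in all 3 CPP-Se dogs than in all 3 control dogs, CEBPE is high in CPP-Se dog 1 (9.51 FPKM) and IRF8 is high in CPP-Se dog 2 (31.0 FPKM).

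None of the 6 members passed the test, which was limma on log2(FPKM + 1) with a call at 1.5-fold or more and a Benjamini-Hochberg adjusted p of less than 0.05. The same test called 3 of the 9847 genes, or 0.0305%. At an unadjusted p under 0.05, 2 of the 6 members (SPI1 and CEBPB) were lower in the CPP-Se group and 0 were higher, against 9.10% of all genes tested that were lower and 6.87% that were higher (16.0% either way). The FPKM of the same 2 members did not overlap between the groups and were lower with CPP-Se, as were those of 12.6% of all genes tested, and 10.4% of genes did not overlap and were higher. The median log2 fold change of the 6 members was -0.23. With 3 dogs against 3, the smallest two-sided p of the exact permutation test is 0.1, so that test could not reach 0.05 for any gene.

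CEBPB encodes C/EBP beta, a leucine zipper factor that acts in emergency granulopoiesis, in macrophage activation and in the acute phase response. Its row, ENSCAFG00000031326, lies at chr24:36661616-36662656 on the plus strand of the dog genome of Ensembl release 100, and is a single uninterrupted block of 1041 bases. Control dogs 1, 2 and 3 had 213, 192 and 196 FPKM, and CPP-Se dogs 1, 2 and 3 had 99.2, 107 and 108 FPKM. Every CPP-Se dog was well under every control dog, and the dogs of each group lay close together. The means were 200 ± 11.2 and 105 ± 4.98 FPKM (SD, n = 3 dogs each), which gave coefficients of variation of 5.58% and 4.75%. The log2 fold change was -0.93 with a standard error of 0.18 and a 95% interval of -1.33 to -0.52. The limma p was 0.000837 before and 0.138 after Benjamini-Hochberg adjustment, and the exact permutation p was 0.1. CEBPB ranked 51 by p among the genes tested, and 3.03% of them had a lower log2 fold change.

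The CEBPB values rested on 661 to 1641 reads a library. The exact Poisson 95% interval of CPP-Se dog 1, from 661 reads, was 91.8 to 107 FPKM, which covers counting error only. It was wider than the range of the CPP-Se dogs and lay under the lowest control. The direction held when any 1 of the 6 dogs was left out, with log2 fold changes of -0.96 to -0.88 and adjusted limma p of 0.131 to 0.459. Its groups did not overlap on any of 6 scales. They came closest in RPM (reads scaled to each library's reads on genes), where CPP-Se dog 2 had 184.8 and control dog 2 had 186.4. The call depended on the model: limma-voom with sample quality weights, which called 1.58% of all genes, gave an adjusted p of 0.0407, while limma-voom without the weights, which called 0.0102%, gave 0.0904. Negative binomial regression on reads, which called 6.63% of all genes, gave 1.46e-05, and with a t reference, which called 0.0102% of them, it gave 0.157. On simulated reads 18 of 167 calls of the first of these were false (10.8%), more than its adjusted p allows, against 0 of 105 with the t reference. That simulation gave genes of equal level an equal spread between dogs, so it does not settle how either performs on these reads.

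SPI1 encodes PU.1, the Ets factor on which myeloid and B cell development depend. Its row, ENSCAFG00000008723, lies at chr18:42253811-42269727 on the plus strand, with 2027 bases of gene model. The 3 control dogs had 314, 282 and 330 FPKM, and the 3 CPP-Se dogs had 213, 232 and 172 FPKM. The groups did not overlap as deposited, and the lowest value was that of CPP-Se dog 3. Group means were 309 ± 24.5 and 205 ± 30.4 FPKM (SD, n = 3 each). The log2 fold change was -0.59 with a standard error of 0.21 and a 95% interval of -1.07 to -0.11. Before adjustment the limma p was 0.0216, its Benjamini-Hochberg adjusted value was 0.247, and 9.72% of the genes tested had a lower log2 fold change.

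Unlike that of CEBPB, the separation of SPI1 depended on the scale. With every library scaled to a common sum of FPKM, CPP-Se dog 2 had 355 FPKM, the highest of the 6 dogs, against 254 to 335 FPKM in the controls. In RPM it was again the highest, at 776 against 534 to 702 in the controls. The groups overlapped on both of these scales with hemoglobin left out as well, and stayed apart with the median of ratios, where CPP-Se dog 2 had 230 FPKM and the lowest control 279 FPKM. On all 6 scales CPP-Se dogs 1 and 3 were under every control dog. Without CPP-Se dog 2, the dog whose library stood apart, the log2 fold change of SPI1 was -0.68, with an adjusted limma p of 0.208.

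**Figure D2:**
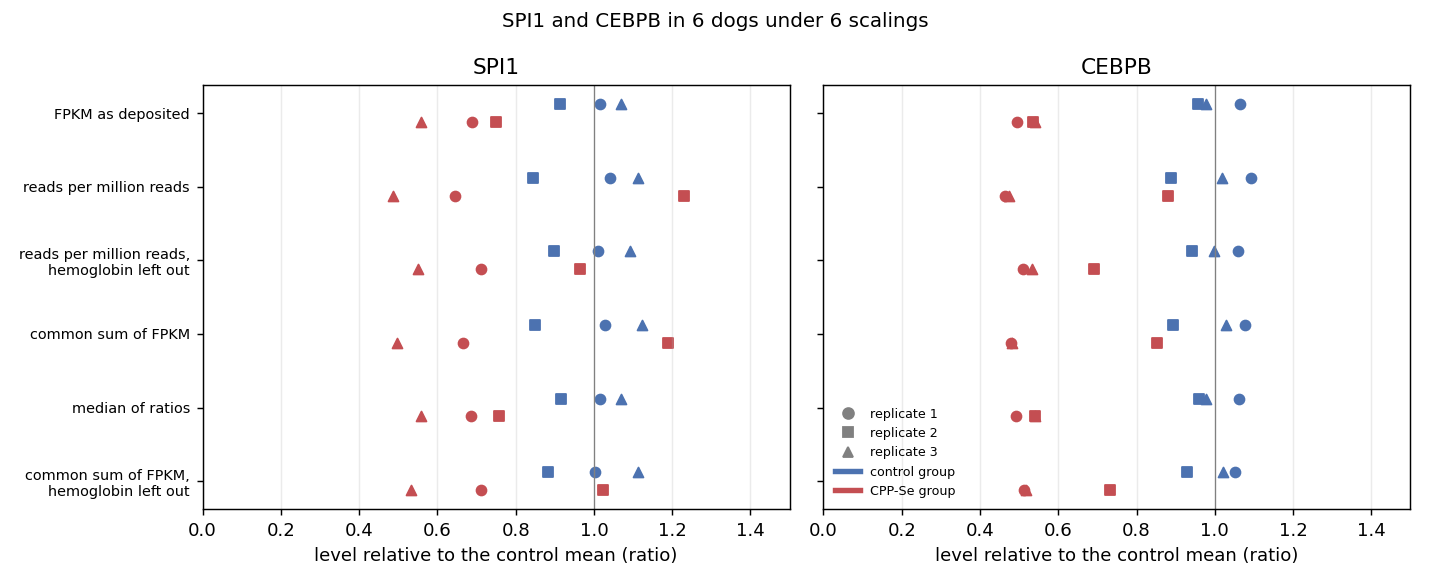
Level of SPI1 (left) and CEBPB (right) as a ratio to the mean of the control dogs under 6 scalings, with control dogs in blue, CPP-Se dogs in red and 1 symbol for each replicate number. CPP-Se dog 2 moves from under the controls to the top of the range for SPI1, reaching 776 RPM against at most 702 RPM in a control dog, while CEBPB keeps all 3 CPP-Se dogs under the controls.

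The C/EBP alpha row, ENSCAFG00000007407, covers 480 bases at chr1:118849186-118849665 on the plus strand. C/EBP alpha is the factor that works with PU.1 in granulocyte progenitors. The control dogs had 83.0, 44.1 and 84.2 FPKM and the CPP-Se dogs had 53.0, 61.2 and 45.6 FPKM. As deposited, control dogs 1 and 3 were the highest and control dog 2 the lowest of all 6, so the groups overlapped. With a common sum of FPKM they also overlapped, but in another order. There CPP-Se dog 2 was the highest (93.9 FPKM) and CPP-Se dog 3 the lowest (39.3 FPKM). On the deposited scale the log2 fold change was -0.35 with a 95% interval of -1.01 to 0.31 and a limma adjusted p of 0.592. It was -0.65 without control dog 2, and -0.20 and -0.19 without control dogs 1 and 3. A long noncoding RNA is annotated on the other strand, 294 bases beyond the end of this row, and the use of strand in counting is not given in the sources used here.

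CEBPE encodes C/EBP epsilon, which drives the secondary granules of neutrophils and the maturation of eosinophils. The row, ENSCAFG00000011433, lies at chr8:3423040-3425217 on the minus strand and has 1593 bases of gene model. Control dogs had 2.48, 1.08 and 2.26 FPKM, and CPP-Se dogs had 9.51, 1.37 and 2.15 FPKM. CPP-Se dog 1 was above every other dog, and the other CPP-Se dogs lay within the control range. That dog had 97 reads on CEBPE, with an exact Poisson 95% interval of 78.7 to 118 reads, and the other 5 libraries had 11 to 29 reads. In FPKM the interval of CPP-Se dog 1 was 7.71 to 11.6, and the highest upper bound among the other dogs was 3.61. These intervals cover counting error only. The log2 fold change was 0.58 with a 95% interval of -0.66 to 1.81 and a limma adjusted p of 0.637. It was -0.07 without CPP-Se dog 1, 1.00 without CPP-Se dog 2 and 0.34 without control dog 2.

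The same dog was high in markers of other granulocytes. The summed level of 9 eosinophil, basophil or mast cell markers was 65.9 FPKM in CPP-Se dog 1, 38.9 FPKM in CPP-Se dog 3 and 10.6 FPKM in CPP-Se dog 2, against 11.7 to 23.6 FPKM in the controls. The eotaxin receptor gene CCR3, the most abundant of these markers, had 21.3 FPKM in CPP-Se dog 1 and 2.91 to 6.20 FPKM in the other dogs. IL5RA, which encodes the receptor for the eosinophil growth factor interleukin 5, was not highest in that dog, at 1.74 FPKM against 1.20 to 3.06 FPKM in the controls. Of 9 markers of immature granulocytes, 6 had a row, and their summed level was 225 to 287 FPKM in the controls and 143 to 183 FPKM with CPP-Se, 70.1% of it from LTF. The 6 did not all lie in 1 direction. BPI ranged from 26.7 to 86.2 FPKM and was lower in every CPP-Se dog, while CAMP was higher in every CPP-Se dog and highest in dog 1, at 12.3 FPKM against 3.63 and 6.70 FPKM in dogs 2 and 3 and at most 0.720 FPKM in the controls. The primary granule genes ELANE (0.716, 0.382 and 0.167 FPKM with CPP-Se, at most 0.149 FPKM in the controls) and MPO (0.112, 0.135 and 0.176 FPKM, at most 0.053 FPKM in the controls) were near 0 in all dogs, were not tested at these levels, and were also higher in every CPP-Se dog. The part of these cells in the CEBPE values was not tested.

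IRF8 encodes a factor that monocytes, dendritic cells and B cells use. Its row, ENSCAFG00000019919, lies at chr5:66791350-66842179 on the minus strand, with 1435 bases of gene model. The control dogs had 17.3, 13.8 and 14.6 FPKM and the CPP-Se dogs had 14.8, 31.0 and 9.22 FPKM. The controls lay close together, while CPP-Se dog 2 was the highest and CPP-Se dog 3 the lowest of the 6. The means were 15.2 ± 1.81 and 18.3 ± 11.3 FPKM (SD, n = 3 each), with a log2 fold change of 0.10, a 95% interval of -0.79 to 0.99 and a limma adjusted p of 0.926. Without CPP-Se dog 2 the log2 fold change was -0.35, and without CPP-Se dog 3 it was 0.48. CPP-Se dog 2 had 593 reads on IRF8 against 81 to 169 in the other libraries, or 73.5 against 11.7 to 25.6 in RPM. With a common sum of FPKM the log2 fold change of IRF8 was 0.25.

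Markers of the cells that use IRF8 did not all follow its pattern. The mean log2(FPKM + 1) of 10 monocyte markers relative to the control mean was -0.79, -0.59 and -1.10 in CPP-Se dogs 1, 2 and 3, which is the order of IRF8 among these dogs. That order was not particular to monocyte markers. The neutrophil markers (-0.54, -0.38 and -0.79) and SPI1 (-0.53, -0.41 and -0.84) had it too. The mean log2(FPKM + 1) of 10 B cell markers was 0.81 above the control mean in CPP-Se dog 2 and 0.42 above it in each of the other CPP-Se dogs, while the summed level of 11 such markers, 75.4% of it from CD79A, was 459 FPKM in CPP-Se dog 2 and 494 and 471 FPKM in CPP-Se dogs 1 and 3. The summed level of 7 dendritic cell markers was 5.02 FPKM in CPP-Se dog 2 and 4.85 to 6.94 FPKM in the other 5 dogs. The part of these cells in the IRF8 values was not tested. Of 8 IRF8-dependent genes of dendritic cells and antigen presentation, 5 were tested, 2 of them lower and 3 higher with CPP-Se, with a median log2 fold change of 0.06. None passed the test. The farthest from 0 were CTSS, a lysosomal protease gene (-0.81), and CIITA, the master regulator of MHC class II (0.54).

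KLF4 encodes a zinc finger factor of monocyte differentiation. Its row, ENSCAFG00000002797, spans chr11:62882767-62928251 on the minus strand, with 1548 bases of gene model. The control dogs had 7.19, 4.05 and 4.82 FPKM and the CPP-Se dogs had 5.95, 2.33 and 2.43 FPKM. As deposited, CPP-Se dogs 2 and 3 were under every control dog, and CPP-Se dog 1 was second only to control dog 1. In RPM, CPP-Se dog 2 (5.95) was above control dog 2 (5.85). On the deposited scale the log2 fold change was -0.53 with a 95% interval of -1.31 to 0.24 and a limma adjusted p of 0.482, on 23 to 76 reads a library. Without CPP-Se dog 1 it was -0.88, while without control dog 1 it was -0.34 and without CPP-Se dog 2 it was -0.35.

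The row named GFI1 could not be read as GFI1 alone. GFI1 encodes a repressor that steers progenitors to neutrophils and away from monocytes. The row, ENSCAFG00000020154, spans 228118 bases at chr6:56256305-56484422 on the plus strand, has 5708 bases of gene model, and is described in the table as the EVI5 protein, a regulator of membrane traffic and cell division. No row was named EVI5. The RefSeq annotation of another dog assembly, UU_Cfam_GSD_1.0, lists GFI1 and EVI5 as separate, adjacent genes. The row's values were 0.975, 1.15 and 1.24 FPKM in the control dogs, against 1.29, 0.933 and 1.55 FPKM with CPP-Se. The groups overlapped, and the log2 fold change was 0.08 with a 95% interval of -0.48 to 0.64 and a limma adjusted p of 0.906. It was -0.01 without CPP-Se dog 3.

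The plot of log2 fold changes sets the members side by side with their intervals. The intervals of SPI1 and CEBPB did not hold 0, and those of the other 4 members and of the C/EBP alpha row did.

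**Figure D3:**
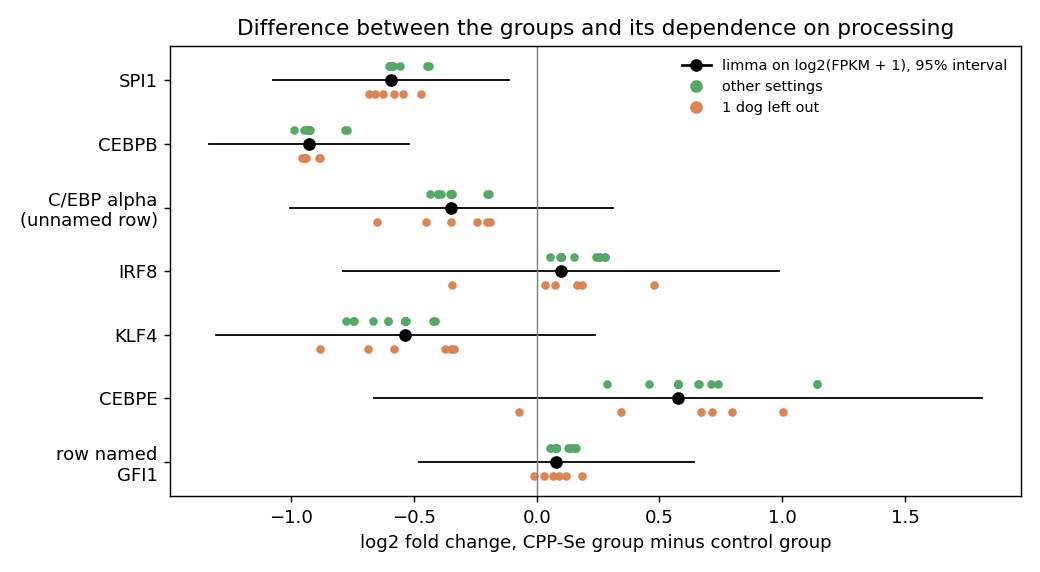
Log2 fold change (CPP-Se group minus control group) of each factor from limma on log2(FPKM + 1), with its 95% interval in black, the values under other settings in green and the values with 1 dog left out in orange. CEBPB stays between -0.99 and -0.77 and SPI1 between -0.68 and -0.44 in every setting drawn, while CEBPE, IRF8 and the row named GFI1 have points on both sides of 0.

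Ratios between members of one circuit were compared within each dog, as differences of log2(FPKM + 1), since a ratio does not depend on the scaling of a library beyond the pseudocount. Of 10 pairs fixed for this purpose, 7 could be formed, 3 of them with the C/EBP alpha row. The ratio of CEBPE to CEBPB was higher in every CPP-Se dog than in every control dog, by 1.5 on average, from -6.13 ± 0.35 to -4.63 ± 1.21 (SD, n = 3 each, exact permutation p = 0.1, adjusted over 7 pairs 0.35). Without CPP-Se dog 1 the difference was 0.81. With the pseudocount of 1, the ratio of IRF8 to SPI1 also did not overlap. It was 0.69 higher with CPP-Se (exact permutation p = 0.1, adjusted 0.35), or 0.34 without CPP-Se dog 2. With a pseudocount of 0.1 the groups overlapped for this ratio (exact permutation p = 0.2). SPI1 (-0.59) and CEBPB (-0.93) were themselves lower, so a gene with a log2 fold change of 0 would also have a higher ratio to either. The ratio of CEBPB to SPI1 ran from -0.75 to -0.55 in the controls, against -1.09, -1.10 and -0.66 with CPP-Se, where dog 3 lay among the controls. Its difference was -0.33 (exact permutation p = 0.2, adjusted 0.35). The other 4 ratios overlapped between the groups, with differences of -0.58 to 0.45. Those with the C/EBP alpha row leaned on single dogs: CEBPB to that row went from -0.58 to -0.31 and that row to SPI1 from 0.25 to 0.01 without control dog 2, and IRF8 to that row from 0.45 to 0.10 without CPP-Se dog 2. With the smallest possible p at 0.1, none of the 7 could pass.

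Levels of neutrophil and monocyte genes differed between the groups in the same direction as SPI1 and CEBPB. Of 8 neutrophil markers tested, 7 were lower with CPP-Se (6 at an unadjusted p under 0.05, against 9.10% of all genes tested) and 1 was higher, also at an unadjusted p under 0.05 (6.87% of all genes), with a median log2 fold change of -0.82. The summed level of the 10 with a row was 2156 to 2928 FPKM in the control dogs and 1163 to 1776 FPKM in the CPP-Se dogs. All 10 monocyte markers tested were lower, 8 of them at an unadjusted p under 0.05 (9.10% of all genes), with a median of -0.81, and the summed level of the 11 with a row was 890 to 1046 FPKM in the controls and 435 to 516 FPKM with CPP-Se. LYZ, the lysozyme gene, made up 51.0% of that sum. None of these markers passed the adjusted test, and CXCR1, FPR1, PADI4, S100A9 and CD14 had no row of that name. T cell markers stood the other way, with 13 of 13 higher and a median of 0.86.

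Each member was then set against these markers in the same dog, as its log2(FPKM + 1) minus the mean of the markers, a comparison added after the data had been seen. Relative to the 8 neutrophil markers, SPI1 was 1.48 ± 0.215 in the controls and 1.46 ± 0.030 in the CPP-Se dogs (SD, n = 3 each), a difference of -0.02 (exact permutation p = 0.8). Relative to the 10 monocyte markers it was 3.10 ± 0.207 and 3.33 ± 0.046, a difference of 0.23 (exact permutation p = 0.2). CEBPB relative to the monocyte markers was 2.48 ± 0.133 and 2.38 ± 0.280, a difference of -0.10 (exact permutation p = 0.7). Relative to the neutrophil markers CEBPB kept a difference of -0.35, with CPP-Se dog 3 (0.76) inside the control range of 0.69 to 0.95 (exact permutation p = 0.2). The marker means were themselves lower with CPP-Se, so a gene with a log2 fold change of 0 would show a difference of 0.57 against the neutrophil and 0.83 against the monocyte markers. IRF8 (0.67 and 0.92) and the row named GFI1 (0.65 and 0.91) lay near these values. All 14 such comparisons had an adjusted p of at least 0.233, and none could reach 0.05. How far the markers' cells set the levels of SPI1 and CEBPB was not tested.

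**Figure D4:**
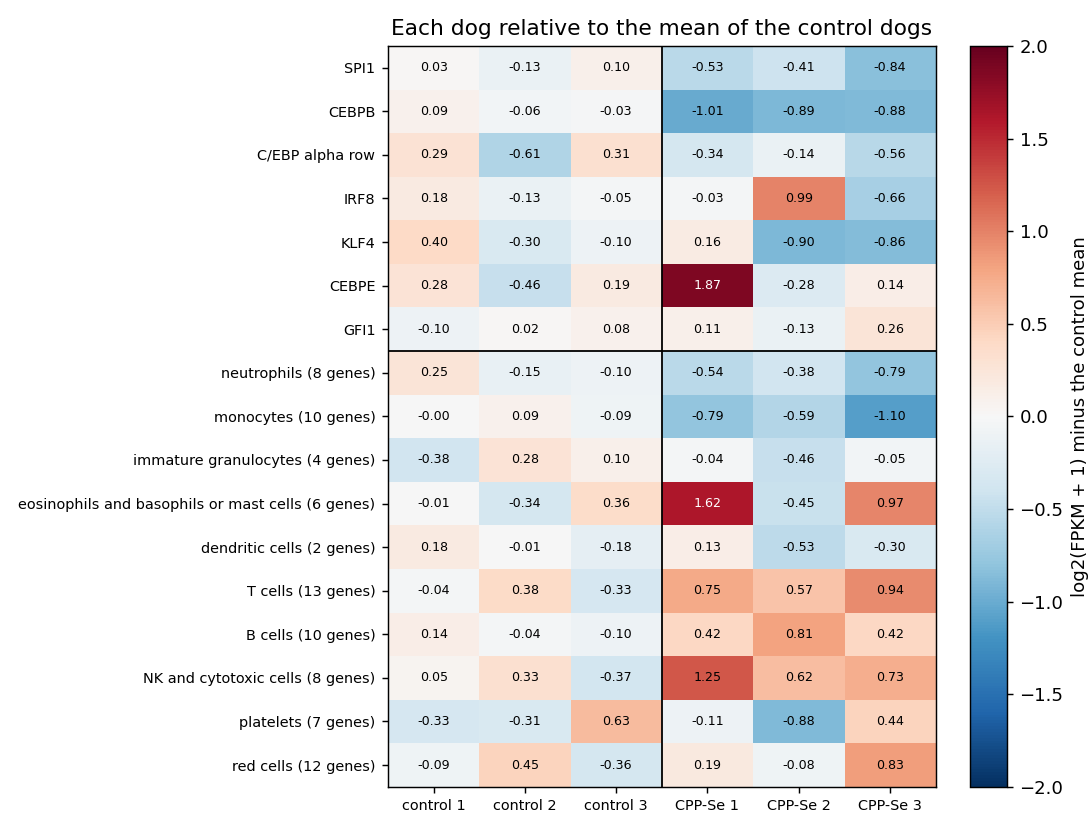
Difference of log2(FPKM + 1) from the mean of the 3 control dogs, for each factor (upper rows) and for the mean of each list of cell markers (lower rows), in each of the 6 dogs, with red above and blue under the control mean. CEBPB (-1.01, -0.89 and -0.88) and SPI1 (-0.53, -0.41 and -0.84) are blue in all 3 CPP-Se dogs together with the neutrophil and monocyte markers, CEBPE is red in CPP-Se dog 1 (1.87) and IRF8 in CPP-Se dog 2 (0.99).

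Genes that PU.1 and the C/EBP factors are known to control were taken from lists chosen with earlier results of these data known. TLR4, CSF2RA, CSF3R and FCGR1A are among the down-regulated hub genes that the study itself reported. The counts below are therefore a description and not a separate test. Of 11 receptor genes tested, among them the receptors for the growth factors of the lineage, all 11 were lower with CPP-Se, as were 50.4% of all genes tested, and 9 had an unadjusted p under 0.05, against 9.10% of all genes. Their median log2 fold change was -0.84. The farthest from 0 were TLR4, the sensor of bacterial lipopolysaccharide (22.5 ± 4.51 against 9.24 ± 2.31 FPKM, SD, n = 3 each, log2 fold change -1.21), CSF2RA, a subunit of the GM-CSF receptor (-1.07), CSF1R, the M-CSF receptor (-0.97), and the scavenger receptor gene CD163 (-0.89). All 4 subunits of the NADPH oxidase that were tested were lower, among them CYBB at -0.75, NCF4 at -0.53 and CYBA at -0.26, and 2 of the 4 were at an unadjusted p under 0.05 (9.10% of all genes). No gene of these lists passed the adjusted test. The receptor list shares CSF3R with the neutrophil markers and CD14, CD163, CSF1R and FCGR1A with the monocyte markers, so its counts are not separate from theirs.

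Granule protein genes, targets of C/EBP epsilon and C/EBP alpha, were divided. Of 9 tested, 7 were lower and 2 higher with CPP-Se, with a median of -0.80. LCN2 (-1.40) and LYZ (-1.32) were the lowest. CAMP, which encodes the antimicrobial peptide cathelicidin, had 0.642 to 0.720 FPKM in the control dogs and 12.3, 3.63 and 6.70 FPKM in the CPP-Se dogs, with a log2 fold change of 2.20, without overlap. MMP9, a gelatinase gene, had a log2 fold change of 1.35 with a standard error of 1.14. Neither passed the limma test, at an adjusted p of 0.138 for CAMP and 0.606 for MMP9. The study's own test was another, DESeq2, and counted CAMP, TLR4 and CD163 as differentially expressed. It also reported RT-qPCR trends for these genes in the direction of its sequencing. Of 5 KLF2-dependent trafficking genes tested, 2 were lower and 3 higher, with a median log2 fold change of 0.10.

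Other regulators of the myeloid lineage were mostly lower with CPP-Se. Of 38 tested of 48 listed, 30 were lower and 8 higher, with a median log2 fold change of -0.30, against 50.4% lower among all genes tested. At an unadjusted p under 0.05, 11 were lower and 1 was higher, against 9.10% and 6.87% of all genes. LMO2, a bridging protein of haematopoietic complexes, averaged 55.5 ± 0.45 FPKM without and 24.98 ± 4.98 FPKM with CPP-Se (SD, n = 3 each), a log2 fold change of -1.14. The repressor genes BCL6 (-0.92) and NFIL3 (-0.87) followed. None passed the adjusted limma test, and the lowest adjusted p among the 38 was 0.138. Immediate early genes, which cells switch on soon after a stimulus, were lower in 7 of 9 tested, with FOS at -1.41, DUSP1 at -1.34, JUN at -0.79 and ZFP36 at -0.56. None of these 9 passed the adjusted test.

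The members were also set among related factors, a grouping added after the data had been seen. It used the single domain label that the table gives a row, and for the KLF genes their names. The label is incomplete, since the Ets factor gene ETV6 (-0.62) and the leucine zipper factor genes FOS, JUN, NFIL3 and DDIT3 carry another label or none and are not counted here. SPI1 supplied 68.5% of the summed FPKM of the 17 rows with an Ets label, of which 10 were tested, 7 of them lower and 3 higher. ETS1, an Ets factor of lymphocytes, had a log2 fold change of 0.55 (33.5 ± 5.54 against 48.9 ± 2.45 FPKM, SD, n = 3 each). Among 28 tested rows with a leucine zipper label, 17 were lower and 11 higher with a median of -0.20. At an unadjusted p under 0.05, 8 were lower and 1 was higher, against 9.10% and 6.87% of all genes, and CREBL2 (-1.02), MAFF (-1.01) and FOSL2 (-0.90) had values near that of CEBPB. Of 7 tested rows with an IRF label, 3 were lower and 4 higher with a median of 0.01, and none had an unadjusted p under 0.05. Of 10 tested KLF genes, 7 were lower and 3 higher with a median of -0.19, and KLF6 alone had an unadjusted p under 0.05 (-0.73), a share near the 9.10% of all genes. None of these rows passed the adjusted test. The plot of these rows by level shows SPI1 and CEBPB among the abundant ones.

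**Figure D5:**
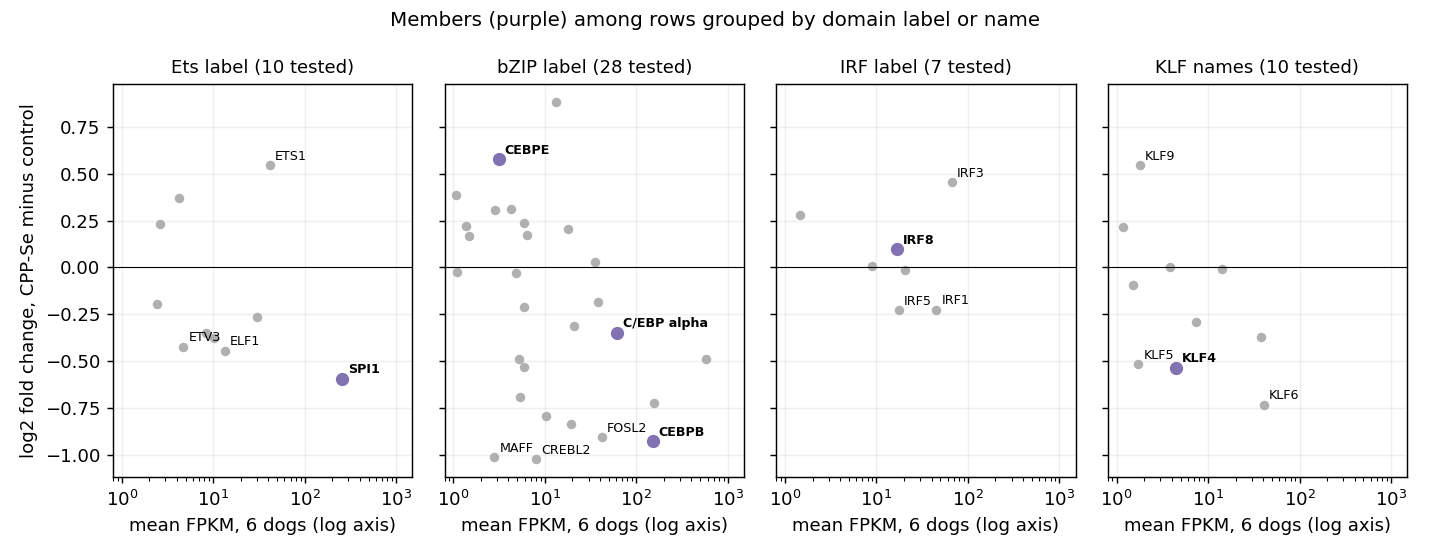
Log2 fold change (CPP-Se minus control) against mean FPKM over 6 dogs (log axis) for the tested rows of 3 domain labels and of the KLF names, with members and the C/EBP alpha row in purple and the 4 rows farthest from 0 in each panel named where they have a name. SPI1 lies at -0.59 among 10 rows with the Ets label, CEBPB at -0.93 among 28 with a leucine zipper (bZIP) label, and IRF8 lies near 0 at 0.10.

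For each member the 2 genes with the most similar pattern over the 6 dogs were found by the root mean square difference of log2(FPKM + 1) centred on each gene's mean. For SPI1 these were FUCA1, a lysosomal fucosidase gene (0.041), and HHEX, a homeobox factor gene (0.051), against a median of 0.44 over the genes compared. FUCA1 had 24.2, 22.7 and 24.4 FPKM in the control dogs and 16.4, 17.6 and 13.2 FPKM in the CPP-Se dogs. For CEBPB they were SLC25A33, a mitochondrial carrier gene (0.084), and TREM1, an amplifying receptor of neutrophils and monocytes (0.092), against a median of 0.55. TREM1 had 37.8, 29.6 and 35.1 FPKM in the control dogs and 17.6, 20.1 and 17.9 FPKM in the CPP-Se dogs. For the remaining members the distances were larger except for the row named GFI1 (RBM14, 0.042, and PPP1R11, 0.048), with APBB1 (0.192) and SYNGR1 (0.193) nearest to CEBPE, ZBTB12 (0.172) and TP53I3 (0.181) nearest to IRF8, and DYNLT1 (0.141) and SEMA3G (0.166) nearest to KLF4. APBB1 shared the high value of CPP-Se dog 1, with 15.4 FPKM against 1.91 to 3.63 FPKM in the other dogs.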

How the data were processed

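Blood RNA of 6 dogs was extracted with Trizol and made into libraries with the NEBNext Ultra kit. Per the labels' processing notes, the submitters used CASAVA 2.19, fastp 0.19.7, HISAT2 2.0.5 and featureCounts 1.5.0-p3; the genome was that of Ensembl release 100. The authors deposited FPKM for each gene and dog, with the gene length in bases. Use of strand and the handling of shared reads are not given in the sources used here. The low FPKM are whole multiples of the value of 1 read, and 100% of values came out whole within 0.01 of a read, which gave the depths of 6598173 to 8067034 reads.

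Groups came from the treatment labels. FPKM are not counts, so limma 3.58.1 (R 4.3.3) was fitted to log2(FPKM + 1) of the 9847 genes that averaged 1 FPKM or more, with an intensity trend and Benjamini-Hochberg adjustment over all of them, and fold changes of low genes are understated on that scale. Single values were tested with exact two-sided permutation tests (scipy 1.17.1). The limma fit and the negative binomial model were tested on simulated data, where the latter with a normal reference made too many false calls. Alternatives covered the pseudocount, the filter, scaling, weights, the replicate number as a block, reads in place of FPKM and each dog left out. Same-numbered dogs did not deviate together (correlations of 0.0165, -0.0900 and -0.0433), so no pairing by number was visible. The labels do not say whether the numbers pair dogs.

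The members and the gene lists were chosen with earlier results of these data known. The 9 members were named in full, with at most the 4 genes farthest from 0 in every other list and the 2 genes most like each member; a few genes that this rule would name are not reported here, and CCR3, IL5RA, CD79A, MPO, ELANE, ETV6 and DDIT3 were named after their values were seen. No sequence is printed, because no genome, promoter or protein table was used here.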

Additional observations from a re-analysis of the deposited data

How the results depend on the processing

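The limits are 3 dogs a group, 1 library a dog, and the scale of CPP-Se dog 2. The 3 genes called by limma became 0 with a pseudocount of 0.1 or with no filter, 12 with a common sum of FPKM, 1 with limma-voom, 653 with a negative binomial model (liberal on simulated reads), and 0 to 14 with 1 dog left out, 14 of them without CPP-Se dog 2. With the replicate number as a block, 1 gene was called, and the adjusted p was 0.259 for CEBPB and 0.388 for SPI1. Among settings chosen after seeing the data, limma-voom with sample quality weights called 156 genes, a filter of 10 mean reads called 1, and the negative binomial model with a t reference called 1. The 6 members stayed at 0 calls except for 1 (CEBPB) with the quality weights and 1 (CEBPB) with the negative binomial model, and gave 0 calls whichever dog was left out. The log2 fold change of CEBPB ran from -0.99 to -0.77 and that of SPI1 from -0.68 to -0.44 over 21 alternatives each. With 1 dog left out, the direction turned for CEBPE (-0.0722 without CPP-Se dog 1, up to 1.00), for the row named GFI1 (-0.0127 without CPP-Se dog 3, up to 0.19), for IRF8 (-0.35 without CPP-Se dog 2, up to 0.48) and for the ratio of the row named GFI1 to CEBPE (0.14 without CPP-Se dog 1, down to -0.82). The cause was not tested. CEBPE, KLF4 and the row named GFI1 rest on 11 to 97 reads a library.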
